A study of Rattus norvegicus with 6 samples.

Results

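Mature miRNAs linked to synaptic plasticity were examined in cultured rat cortical neurons: rno-miR-135a-5p, rno-miR-135b-5p, rno-miR-188-5p, rno-miR-191a-5p, rno-miR-218a-5p, rno-miR-384-5p and rno-miR-384-3p, written here without the species prefix. They were chosen by name, and all 7 were present among the 649 mature miRNAs counted. The neurons came from the cortex of Sprague-Dawley rat embryos at embryonic day 18 and were stimulated at 7 days in vitro according to the sample labels, whereas the study's text gives 6. The 3 BDNF libraries came from neurons given 100 ng/ml brain-derived neurotrophic factor (BDNF) for 20 min, and the 3 Control libraries from neurons given the vehicle, 0.1% BSA, for the same time. Both groups had also received the antimitotic fluorodeoxyuridine, which limits dividing glia. Embryos of both sexes were used.

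A miRNA guides the Argonaute complex to messenger RNAs that pair with its seed, bases 2 to 8 from the 5′ end, and lowers the protein made from them. At synapses such repression can be local, in dendrites, and can change within the time course of plasticity. MiR-135 and miR-191 are known from long-term depression, in which spines shrink, and act on complexins and on the actin-capping protein tropomodulin-2, respectively. MiR-188 and miR-384-5p are known from long-term potentiation and act on neuropilin-2, a semaphorin receptor, and on the kinase Rsk3. MiR-218 is a neuron-enriched miRNA whose precursors lie in the axon guidance genes Slit2 and Slit3. BDNF is itself a secreted factor that promotes potentiation.

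The mature sequences are shown because they decide which of these miRNAs can share targets, with the seed in capitals.
miR-135a-5p: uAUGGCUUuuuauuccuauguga
miR-135b-5p: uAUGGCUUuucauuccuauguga
miR-188-5p: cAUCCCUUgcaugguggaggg
miR-191a-5p: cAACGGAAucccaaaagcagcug
miR-218a-5p: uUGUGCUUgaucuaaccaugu
miR-384-5p: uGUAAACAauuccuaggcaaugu
miR-384-3p: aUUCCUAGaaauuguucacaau
miR-30a-5p: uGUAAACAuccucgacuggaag
miR-30c-5p: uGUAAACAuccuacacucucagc
miR-30e-5p: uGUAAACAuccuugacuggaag

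MiR-135a-5p and miR-135b-5p shared their seed and were identical at 22 of 23 positions. They differed by the substitution U11C, counted from 1 at the 5′ end with the base of miR-135a-5p first. MiR-384-5p carried the seed of the miR-30 family, of which miR-30a-5p, miR-30c-5p and miR-30e-5p are shown above, but beyond the seed it was little like them, with 12 of 22 positions identical to miR-30a-5p. None of the 583 listed miRNAs with a sequence shared the seed of miR-188-5p, miR-191a-5p, miR-218a-5p or miR-384-3p. Listed names without a sequence could not be compared. The nearest listed sequence to any of the members other than miR-135a-5p and miR-135b-5p differed by 7 to 11 bases. That comparison ran without gaps from the 5′ end, over 17 to 22 positions.

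In the RefSeq annotation of GRCr8, miR-135a-5p lay at chr7:28499221-28499243 on the minus strand, within the span of the long non-coding RNA LOC102548260. MiR-135b-5p lay at chr13:46191033-46191055 on the plus strand, in the span of Lemd1 and Blacat1. MiR-188-5p, at chrX:17919595-17919615 (plus), lay within Clcn5, the gene of a chloride transporter. MiR-191a-5p, at chr8:118142641-118142663 (plus), lay within Dalrd3. The sequence of miR-218a-5p had a copy at chr10:20572547-20572567 (plus), within Slit3, and another at chr14:66922413-66922433 (minus), within Slit2. Both arms of miR-384 came from the minus strand of chromosome X, at chrX:74490939-74490961 for 5p and chrX:74490899-74490920 for 3p, within the span of LOC103690870, a non-coding RNA. Whether each hairpin was exonic or intronic was not resolved here.

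Each library held between 10374120 and 12533029 counts, so that a level of 10 RPM, reads for each 1000000 counts of the library and the minimum mean level for testing, corresponded to 103.7 to 125.3 reads. Libraries of a group differed by far more than sampling noise, with a chi-square of 120.5 to 634.6 per degree of freedom. The neuronal markers were miR-124-3p, miR-9a-5p, miR-128-3p, miR-137-3p, miR-138-5p and miR-153-3p. They made up 336204 to 412979 RPM and all 6 were above the minimum. Most of that sum was miR-9a-5p, at 249572 to 331060 RPM, and the lowest was miR-153-3p, at 19.6 to 40.4 RPM. The leukocyte markers miR-142-3p and miR-142-5p summed to 1.11 to 2.66 RPM and those of red blood cells to 2.69 to 6.56 RPM. Oligodendrocyte markers summed to 31.3 to 37.6 RPM, endothelial markers to 72.0 to 100.9 RPM and the glial markers miR-21-5p and miR-146a-5p to 5587 to 7495 RPM. In bulk libraries, fewer cells of a type and less of a miRNA per cell cannot be told apart.

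The 7 miRNAs together took 0.666% to 0.864% of the counts of a library. MiR-191a-5p was the most abundant, at a mean of 3677 RPM over the 6 libraries and rank 33 of 649. MiR-218a-5p followed at 2089 RPM and rank 47, and miR-135b-5p at 727 RPM and rank 88. The miR-384 arms came next, with miR-384-3p at 546 RPM and rank 102 above miR-384-5p at 337 RPM. MiR-135a-5p had 197 RPM and rank 146. MiR-188-5p, at 6.56 RPM and rank 358, was 30.05 times lower than miR-135a-5p and the only member below the minimum of 10 RPM, so that 6 of the 7 passed the filter. The order was the same in 6 of 6 libraries for every pair of neighbours. Only miR-135b-5p, from 599.7 to 855.2 RPM, and miR-384-3p, from 469.2 to 606.5 RPM, had ranges that overlapped across libraries. Within a library miR-135b-5p was the higher of the pair in every case, by 1.26 to 1.41 times. Levels of different miRNAs also carry the sequence preferences of ligation and amplification, so the order is that of reads.

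**Figure D1:**
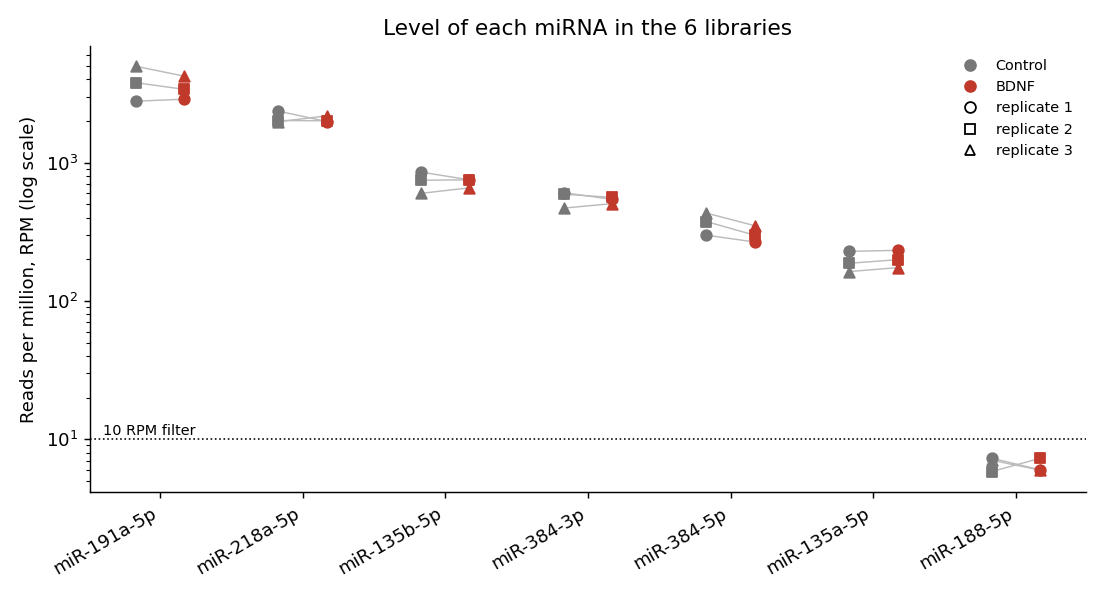
Level of each miRNA in RPM on a log axis, with Control libraries in grey, BDNF libraries in red, a marker shape for each replicate number and a line joining libraries of the same number; the dotted line is the 10 RPM minimum. The 7 miRNAs span from 5.82 RPM for miR-188-5p to 4987 RPM for miR-191a-5p, and Control and BDNF libraries overlap for each of them.

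Whether BDNF changes the levels of these miRNAs within 20 min was examined first for the miRNAs of long-term depression. MiR-191a-5p was at 2784, 3793 and 4987 RPM in Control replicates 1, 2 and 3 and at 2877, 3394 and 4227 RPM in the BDNF replicates. Replicate 1 was the lowest and replicate 3 the highest library in both groups, and the BDNF values lay within the Control range. The group means were 3855 ± 1103 and 3500 ± 681 RPM (SD, n = 3), and the log2 fold change (BDNF/Control) was -0.12 (SE 0.19, 95% interval -0.58 to 0.34) in edgeR's quasi-likelihood test, with a P-value of 0.56.

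MiR-135b-5p was at 855.2, 746.4 and 599.7 RPM in Control and at 750.9, 751.2 and 657.9 RPM in BDNF libraries. The BDNF libraries again lay within the Control range. Its log2 fold change was -0.01 (SE 0.19, 95% interval -0.46 to 0.45). MiR-135a-5p was at 228.1, 187.1 and 163.0 RPM in Control and at 232.1, 198.6 and 174.0 RPM in BDNF libraries. Each BDNF library of miR-135a-5p was above the Control library of the same number, by less than the libraries of a group differed among themselves. The log2 fold change of miR-135a-5p was 0.09 (SE 0.22, 95% interval -0.42 to 0.61).

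Because the 2 miR-135 miRNAs share a seed, their sum and their shares were compared as well. The sum was 926 ± 160 RPM in Control and 922 ± 79.4 RPM in BDNF libraries (SD, n = 3). MiR-135a-5p made up 20.8 ± 0.69% of it in Control and 21.8 ± 1.6% in BDNF libraries (SD, n = 3; two-sided exact permutation P-value 0.6). MiR-135b-5p thus exceeded miR-135a-5p by 3.23 to 3.99 times in every library, although the level of each varied by 1.42 to 1.43 times across libraries. Since they differ by 1 base and 1 mismatch was allowed in the counting, reads of these 2 miRNAs can have been exchanged.

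Of the miRNAs of long-term potentiation, miR-384-5p was at 298.9, 375.2 and 431.7 RPM in Control and at 266.7, 298.5 and 349.9 RPM in BDNF libraries. The BDNF library was the lower one in each of the 3 replicate numbers, but the groups overlapped, as BDNF replicate 3 was above Control replicate 1. The means were 368.6 ± 66.7 and 305.0 ± 42.0 RPM (SD, n = 3), and the ratios by replicate number were 0.892, 0.796 and 0.810, with a mean of 0.833 ± 0.052 (SD, n = 3). The log2 fold change was -0.25 (SE 0.14, 95% interval -0.57 to 0.07), and edgeR gave P-values of 0.10 before and 0.999 after adjustment. With the replicate number as a block it was -0.24 (SE 0.08, 95% interval -0.42 to -0.06), and its P-value was 0.014 before and 0.17 after adjustment. The difference therefore passed the unadjusted threshold of 0.05 only with the block or without Control replicate 1 (P-value 0.016 in edgeR, 0.42 after adjustment), and the adjusted threshold in neither fit.

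The other arm, miR-384-3p, was at 606.5, 591.7 and 469.2 RPM in Control and at 542.9, 560.4 and 505.2 RPM in BDNF libraries. The BDNF libraries lay within the Control range. Its log2 fold change was -0.03 (SE 0.17, 95% interval -0.43 to 0.37). MiR-188-5p was counted with 76, 73 and 73 reads in Control and 70, 82 and 71 reads in BDNF libraries, or 7.28, 5.82 and 7.04 RPM and 5.99, 7.27 and 5.96 RPM. Its spread within a group, a coefficient of variation of 11.6%, was no larger than the 11.6% that counting alone gives, unlike those of the other members, at 5.2% to 28.6% against 0.50% to 2.18%. When no filter was applied, its log2 fold change was -0.03 (SE 0.18, 95% interval -0.44 to 0.38), and a change within that interval was not resolved by these libraries.

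MiR-218a-5p was at 2362, 2018 and 1978 RPM in Control and at 1984, 2009 and 2181 RPM in BDNF libraries. The groups overlapped, and Control replicate 1 was the highest library. The log2 fold change was -0.02 (SE 0.12, 95% interval -0.30 to 0.25), the narrowest interval among the 7. The 3p arms, which differ between the 2 precursors, were counted in a total of 148 reads over the 6 libraries. Of these, 135 were assigned to miR-218a-2-3p of the Slit3 copy. This share was 91.2% (Wilson 95% interval 85.6 to 94.8, counting error only). Shifted by 3 bases, the 2 arms differ by 1 base where they overlap. With 1 mismatch and 3 trimmed or added bases allowed in the counting, their reads can have been exchanged. The reads of the 5p arm cannot be assigned to either copy.

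**Figure D2:**
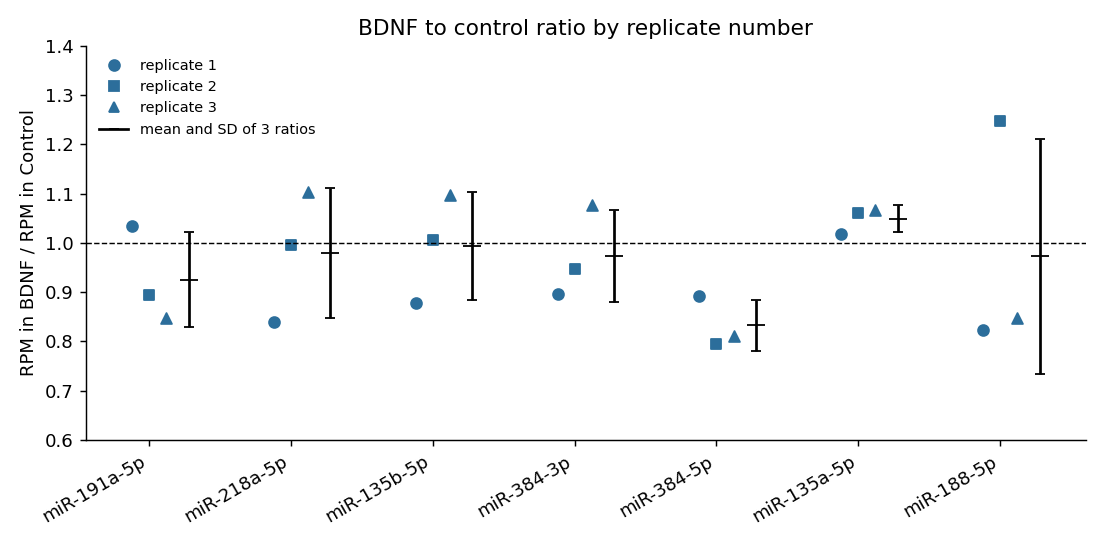
Ratio of RPM in the BDNF library to RPM in the Control library of the same replicate number, with a marker shape per number and the mean and SD of the 3 ratios in black. All 3 ratios of miR-384-5p lie below 1 (0.796 to 0.892) and all 3 of miR-135a-5p just above it (1.02 to 1.07), whereas the other 5 miRNAs have ratios on both sides of 1.

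Of the 6 members tested in edgeR, 0 passed the threshold of 0.05 after adjustment (0.0% of the 336 miRNAs tested) and 0 before it (2.98% of those tested). With the replicate block, 1 of 6, miR-384-5p, passed the unadjusted threshold (20.5% of all tested, and 12.8% passed it as lower in BDNF libraries). With the block and no filter, 0 of 7 passed the adjusted threshold (3.08% of all 649). The median log2 fold change of the members was -0.03, with 1 above and 5 below 0, and that of all tested was -0.00. Groups that did not overlap were found for 0 of 6 in RPM (5.36% of all tested) and for 0 of 6 in TMM-normalized RPM (7.14%), and 2 of 6 had the same direction in all 3 pairs (39.3% of all tested). A lower value in all 3 pairs, as for miR-384-5p, was found for 30.1% of all tested. The smallest P-value that exact permutation of 3 against 3 libraries allows is 0.1.

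**Figure D3:**
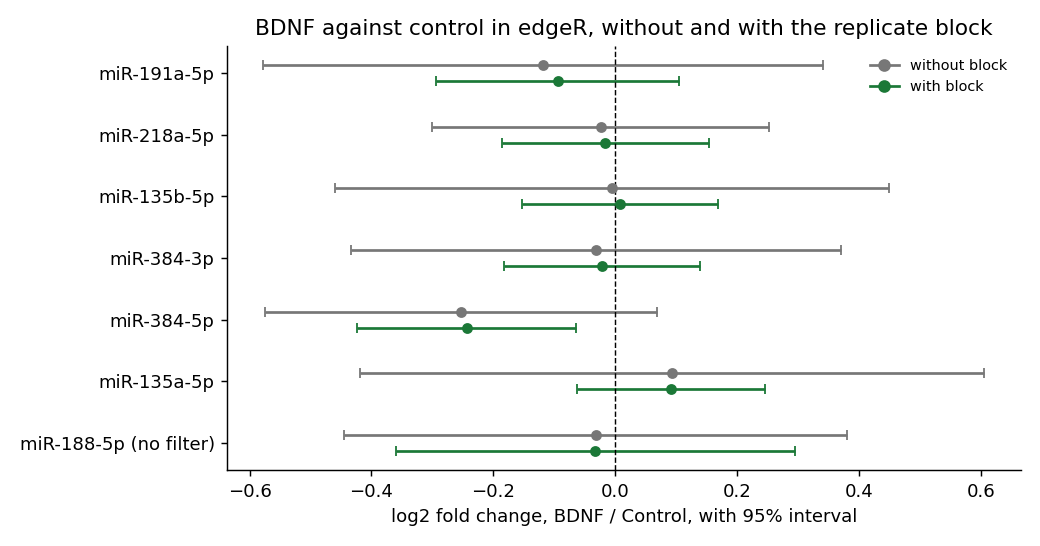
Log2 fold change (BDNF/Control) of each miRNA from edgeR with its 95% interval, without (grey) and with (green) the replicate number as a block; miR-188-5p is from the fits with no filter. Each interval without the block includes 0, and with the block only that of miR-384-5p, -0.42 to -0.06, does not.

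How the members varied between libraries that share a replicate number was examined next. In a test of the replicate terms beside treatment (edgeR's quasi-likelihood test), 4 of 6 members passed the adjusted threshold, where 48.2% of all tested miRNAs did. MiR-135a-5p, miR-135b-5p and miR-384-3p were lower in replicate 3 than in replicate 1, by log2 differences of -0.62, -0.52 and -0.41, with adjusted P-values of 0.0022, 0.0042 and 0.0083. MiR-191a-5p was higher in replicate 3, by 0.52, with an adjusted P-value of 0.013. MiR-384-5p (0.29, adjusted P-value 0.072) and miR-218a-5p (-0.23, adjusted P-value 0.14) did not pass. Expressed as RPM, the geometric means of the libraries of a number spanned 1.62-fold for miR-191a-5p and 1.08-fold for miR-218a-5p, with a median of 1.30-fold over all tested.

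The calls by number depended on Control replicate 3: without it, only miR-135a-5p passed, with an adjusted P-value of 0.046. The calls over all 336 tested fell as well, from 162 to 66, and they were also 66 without BDNF replicate 3, where 4 members still passed. With library size alone as the scaling, miR-384-3p no longer passed (0.096) and miR-384-5p did (0.011). Other miRNAs moved with the numbers too. MiR-132-3p, an activity-dependent miRNA, was at 604, 810 and 1825 RPM in Control and at 501, 732 and 1466 RPM in BDNF libraries. The glial markers miR-21-5p and miR-146a-5p summed to 7296, 6625 and 5587 RPM in Control and to 7495, 7044 and 5616 RPM in BDNF libraries, lowest in both replicate 3 libraries. Nearly all of this sum was miR-21-5p. MiR-146a-5p alone was lowest in both replicate 2 libraries, at 9.81 RPM in Control and 11.3 RPM in BDNF. The neuronal markers also summed lowest in both replicate 3 libraries, at 336204 RPM in Control and 377661 RPM in BDNF. Most of that sum was miR-9a-5p, at 249572 RPM in Control replicate 3 and 282049 RPM in BDNF replicate 3. Of the neuronal markers, only miR-9a-5p and miR-153-3p were lowest in both replicate 3 libraries. MiR-138-5p was highest in both, and miR-124-3p, miR-128-3p and miR-137-3p were lowest in neither. The part of any of these miRNAs in the differences between numbers was not tested.

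**Figure D4:**
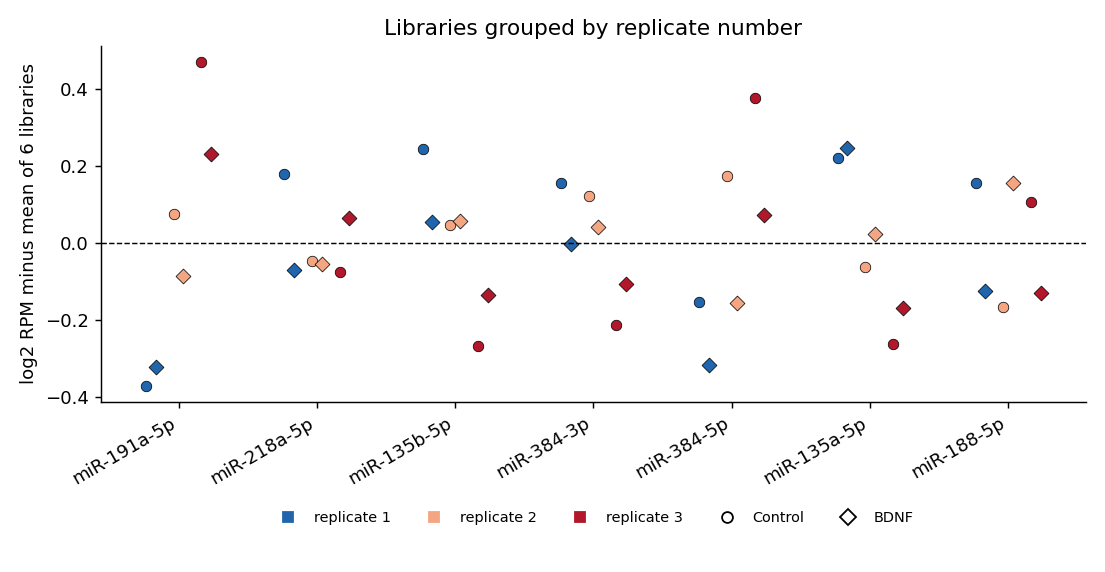
Log2 RPM of each library minus the mean of the 6 libraries, coloured by replicate number, with circles for Control and diamonds for BDNF. Both replicate 3 libraries of miR-191a-5p lie above both replicate 1 libraries, and those of miR-135a-5p and miR-135b-5p lie below them.

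Across the 6 libraries, the members fell into patterns that are given as a description, since libraries of a number share a deviation. On log2 TMM-normalized RPM, miR-135a-5p and miR-135b-5p had a Pearson r of 0.94, and miR-135b-5p and miR-384-3p of 0.97. MiR-191a-5p went with miR-384-5p (0.85) and against miR-135a-5p (-0.89) and miR-218a-5p (-0.91). The arms of miR-384 had an r of -0.39. The tested miRNAs most like each member were miR-3559-5p and miR-3068-3p for miR-135a-5p (0.996 and 0.993), miR-466c-5p and miR-19a-3p for miR-135b-5p (0.991 and 0.990), and miR-361-5p and miR-330-3p for miR-191a-5p (both 0.989). For miR-384-5p they were miR-421-3p and miR-652-3p (0.995 and 0.991), for miR-384-3p miR-6329 and miR-19a-3p (0.989 and 0.981), and for miR-218a-5p miR-455-5p and miR-27b-3p (0.955 and 0.936).

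A hairpin yields a 5p and a 3p arm, of which one is usually kept, and their ratio needs no scaling between libraries. Of the 6 precursors plotted, miR-384 was the only one with the 3p arm in excess. Its 3p arm exceeded the 5p arm by 2.03, 1.58 and 1.09 times in Control and by 2.04, 1.88 and 1.44 times in BDNF libraries. Both groups overlapped, with means of 1.56 ± 0.47 and 1.79 ± 0.31 (SD, n = 3; two-sided exact permutation P-value 0.6). In limma, the log2 5p/3p ratio of miR-384 was -0.60 in Control and -0.82 in BDNF libraries, a difference of -0.22 (SE 0.24, 95% interval -0.77 to 0.32, adjusted P-value 0.96). The 3p excess was higher in the BDNF library of all 3 pairs, by little in replicate 1, and with the replicate block the difference was -0.22 (SE 0.10, 95% interval -0.47 to 0.03), with P-values of 0.072 before and 0.44 after adjustment. Without Control replicate 3 the difference was 0.02 in the fit without the block. Of the 83 precursors tested without the block, none passed (0.0%), and 3.61% had an unadjusted P-value below 0.05. With the block none passed either, and 10 of the 83 had an unadjusted limma P-value below 0.05. Neither miR-384 nor a miR-135 precursor was among them in either fit. The share of precursors with the same direction in all 3 pairs was not counted.

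The replicate 3 libraries had the lowest 3p excess of miR-384 in both groups. A test of the ratio by replicate number, chosen after its values were seen, gave an adjusted P-value of 0.023 for miR-384 in limma, where 16.9% of the 83 precursors passed. That call was lost, with adjusted P-values of 0.12 to 0.20, when Control replicate 1, Control replicate 3, BDNF replicate 1 or BDNF replicate 3 was left out. In those settings the log2 difference between replicates 3 and 1 was 0.54 to 0.86, against 0.70 with all libraries, and the calls over all precursors fell from 14 to between 0 and 2.

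The other precursors had the 5p arm in excess. MiR-135b-5p exceeded miR-135b-3p by 10.4 to 13.2 times, miR-135a-5p exceeded miR-135a-3p by 11.99 to 23.57 times and miR-188-5p exceeded miR-188-3p, which had 3 to 9 reads, by 8.44 to 24.3 times. MiR-191a-5p exceeded miR-191a-3p by 421, 710 and 908 times in Control and by 467, 421 and 462 times in BDNF libraries. The 3p arm of miR-191a had 57 to 109 reads, under the minimum, and its log2 fold change in the fit with no filter was 0.44 (SE 0.19, P-value 0.043, adjusted P-value 1.00 in edgeR, where 2.31% of 649 had an unadjusted P-value below 0.05). The log2 5p/3p ratio changed by 0.19 (SE 0.26) for miR-135a and by -0.01 (SE 0.15) for miR-135b, each with an adjusted P-value of 0.96.

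**Figure D5:**
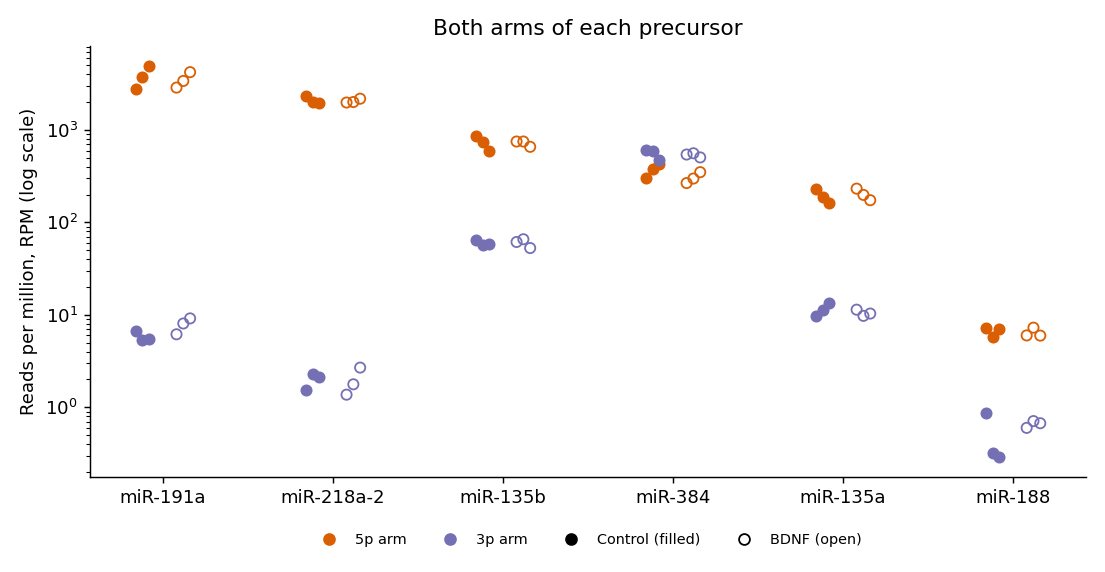
Level of the 5p arm (orange) and 3p arm (purple) of each precursor in RPM on a log axis, with filled points for Control and open points for BDNF libraries; the 5p reads of miR-218a come from both of its loci. The 3p arm lies above the 5p arm for miR-384, by 1.09 to 2.04 times, and below it for the other 5.

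MiR-191a and miR-188 lie in clusters of hairpins close enough to be transcribed together. Mir191 and Mir425 are 366 bases apart on chromosome 8. MiR-425-5p was at 57.8, 69.6 and 92.7 RPM in Control and at 50.5, 56.3 and 83.1 RPM in BDNF libraries, and like miR-191a-5p it was highest in both replicate 3 libraries. The BDNF library was the lower one in all 3 pairs, as for 30.1% of all tested, with ratios of 0.874, 0.809 and 0.896. The log2 fold change of miR-425-5p was -0.20 (SE 0.20, P-value 0.36 in edgeR). With the replicate block it was -0.20 (SE 0.08), with edgeR P-values of 0.047 before and 0.24 after adjustment. In that fit 12.8% of all tested passed the unadjusted threshold as lower. The other arm, miR-425-3p, had ratios of 0.947, 0.899 and 1.12 and a log2 fold change of 0.02 without the block. The ratio of miR-191a-5p to miR-425-5p stayed between 48.2 and 60.3, with means of 52.2 ± 3.5 in Control and 56.0 ± 4.8 in BDNF libraries (SD, n = 3; two-sided exact permutation P-value 0.4). Mir188 lies 321 bases from Mir532, with Mir362, Mir501 and Mir500 within 10982 bases. MiR-532-5p, at 1842 to 2377 RPM, exceeded miR-188-5p by 273 to 356 times. Of 8 listed names of the miR-188 cluster partners, 5 were tested and none passed at an adjusted P-value below 0.05 in edgeR (0.0% of all tested). Their log2 fold changes ran from -0.06 (miR-532-3p) to 0.10 (miR-362-3p). The hairpins of a cluster thus differed in the level of their mature reads by up to 356 times for miR-532-5p and miR-188-5p.

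Reads with the seed of miR-384-5p came mostly from the miR-30 family. MiR-384-5p took 1.10 ± 0.23% of the reads with its seed in Control and 0.93 ± 0.15% in BDNF libraries (SD, n = 3; two-sided exact permutation P-value 0.4), beside miR-30a-5p, miR-30c-5p and miR-30e-5p. With miR-30b-5p and miR-30d-5p counted by name, the shares were 0.70 ± 0.13% and 0.61 ± 0.08% (SD, n = 3; two-sided exact permutation P-value 0.3).

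Other miRNAs with known roles at synapses were set beside the members. Of 24 listed, 21 were tested in edgeR, of which 0 passed the threshold of 0.05 with or without adjustment. Of all tested, 2.98% passed it without adjustment and 0.0% with it. Their median log2 fold change was 0.01, with 11 above and 10 below 0, from -0.29 for miR-138-5p, which limits spine size, to 0.50 for miR-376a-3p. With the replicate block, 7 of the 21 passed the unadjusted threshold (20.5% of all tested) and none the adjusted one. The 5 lower ones (12.8% of all tested were lower) were miR-132-3p (-0.22), miR-212-3p (-0.29), miR-138-5p (-0.28), miR-34a-5p (-0.29) and miR-329-3p (-0.24), and the 2 higher ones were miR-125a-5p (0.18) and miR-376a-3p (0.49). MiR-384-5p was at -0.24 in that fit. It and these 7 all passed the same unadjusted threshold, so a likeness in size between them is not informative.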

How the data were processed

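The deposited values are raw read counts per mature miRNA. According to the methods, the authors trimmed adapters, kept reads with at least 90% of bases at quality 30 or more and at least 15 nt, and assigned them with Miraligner to miRBase 21, allowing 1 mismatch and 3 trimmed or added bases; tool versions and the treatment of reads matching several miRNAs are not given in the sources used here. A count thus sums over isomiRs, and miR-135a and miR-135b can exchange reads, as can miR-218a-1-3p and miR-218a-2-3p.

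RPM used the sum of all counts in a library. MiRNAs whose mean reached 10 RPM in either condition (336) were tested with edgeR 4.0.16 (R 4.3.3, TMM, quasi-likelihood) without a replicate block, with Benjamini-Hochberg adjustment over all tested. The SE is the log2 fold change divided by the square root of F. Arm ratios, with 0.5 added to each count, were tested with limma 3.58.1. Code was tested on simulated data.

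Alternatives were the replicate block, library-size and upper-quartile scaling, DESeq2 1.42.0, limma-trend on log2(RPM + 1), no filter and leaving out each sample. For arm ratios, a minimum of 1 read of both arms in every sample was another. Another 2 were added after the data were seen, the block without the filter and the arm ratio by replicate number. Libraries with the same number deviated together from their group means (correlations 0.81, 0.49 and 0.89), and the numbers, taken from the sample titles, were therefore taken to pair the libraries. Correlations between libraries of unlike numbers were not computed. The tests stayed unpaired unless the block is named, and its values are given where they change a call or bear on one.

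The miRNAs named are the members, their other arms, listed miRNAs with the same seed, cluster partners, the 2 tested miRNAs most correlated with each member, and from a list of synaptic miRNAs those with an unadjusted P-value below 0.05 or the extreme fold changes. Members and lists were chosen with earlier results of these data known. MiR-132-3p, the glial markers and the neuronal markers were given beside the replicate numbers after their values were seen. The paper describes the libraries as 3 biological replicates per treatment and refers to 3 independent experiments. The labels do not tie libraries to separate animals, and the P-values measure the spread between these samples. Sequences are RefSeq's for GRCr8, where 583 of 649 names matched.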

Additional observations from a re-analysis of the deposited data

How the results depend on the processing

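The log2 fold change of miR-384-5p kept its sign in 13 of 13 alternatives, from -0.35 to -0.17, with adjusted P-values of 0.12 to 1.00. The sign changed in some alternatives for miR-135a-5p (2 of 13), miR-135b-5p (7), miR-191a-5p (1), miR-218a-5p (2) and miR-384-3p (3). No member passed at an adjusted P-value below 0.05 in any alternative. At the unadjusted threshold of 0.05, 1 member passed with the replicate block, 1 with the block and no filter, and 0 to 1 when a library was left out, in each case miR-384-5p. The replicate block changed no other call of a member.

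Among all tested, 10 had an unadjusted P-value below 0.05, against 69 with the replicate block, 88 with the block and no filter, 6 with library size alone, 6 in limma-trend and 3 to 32 without 1 library (32 without Control replicate 1). DESeq2 gave 12 at the unadjusted threshold and 0 after adjustment. With the block and no filter, 20 of 649 passed at an adjusted P-value below 0.05 (3.08%), none of them a member. The number of members called by replicate number was 4, and 1 to 5 without 1 library, lowest without Control replicate 3, beside 162 of all tested and 66 to 182 without 1 library. The mean ratio by replicate number of each member moved by less than 1 SD with TMM scaling, although single ratios moved by more, in replicate 1 from 1.02 to 1.09 for miR-135a-5p and from 0.892 to 0.956 for miR-384-5p. The cause of these differences was not tested. Counts were low for miR-188-5p, at 70 to 82 reads a library, and lower for the 3p arms of miR-188 and miR-218a.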
